A study of Mus musculus with 2 samples.

Results

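Mirlet7b, Mirlet7d, Mirlet7e, Mirlet7g, Mirlet7i and Mir98 are let-7 genes whose mature 5p product is encoded at 1 place among the annotated hairpins. The same holds for the genes of let-7j and let-7k, which are not among the 6. They were chosen by gene symbol from the annotation, and are 6 of the 2202 miRNA genes in the deposited tables. Their reads were counted in small RNA libraries (fragments under 30 nt, per the labels) from hippocampal tissue taken at 2 months of age from males of B6CASTF1/J, a hybrid mouse stock whose reads were not split by allele here. The 2 libraries form 1 group, untreated as far as the labels state, so no comparison between conditions was possible. The labels give each library its own biosample but name the same donor entry for both. SD values, here over 2 libraries, therefore measure only the spread between these samples, which may be technical.

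Let-7 microRNAs are cut from hairpin precursors by Drosha and then Dicer, and the mature strand guides Argonaute to messenger RNAs that pair with its seed, bases 2 to 8. The family is known for its rise as cells leave the progenitor state and for repressing growth genes such as Hmga2 and Lin28. LIN28 proteins in turn bind the loop of let-7 precursors and block their processing in immature cells. Adult brain is known as a tissue rich in let-7.

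The mature products of the 6 genes carry 1 seed on different bodies. Those from the 5p arm, the main products of let-7 hairpins, are shown 5′ to 3′ from RefSeq (GRCm38.p6) with the seed in capitals. Among these 6 products only the lower-case bases differ.
let-7g-5p: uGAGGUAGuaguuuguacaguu
let-7i-5p: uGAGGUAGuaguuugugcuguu
let-7b-5p: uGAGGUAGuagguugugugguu
let-7d-5p: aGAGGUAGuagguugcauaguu
let-7e-5p: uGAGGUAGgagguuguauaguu
miR-98-5p: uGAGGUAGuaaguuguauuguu

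All 6 were 22 nt long, as were the 6 products of the 3p arm, so a count was not scaled by length. The seed GAGGUAG was found in 13 of 1738 mature entries of the RefSeq table, from 13 genes. Besides the 6 genes these were Mirlet7a-1, both let-7c genes, both let-7f genes, Mir7k (let-7k) and Mir1961. For Mirlet7a-2 the table matched a 3p entry only. Across the 6 sequences 14 positions were the same and 8 varied, namely positions 1, 9, 11, 12, 16, 17, 18 and 19 from the 5′ end, with none inside the seed.

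**Figure D1:**
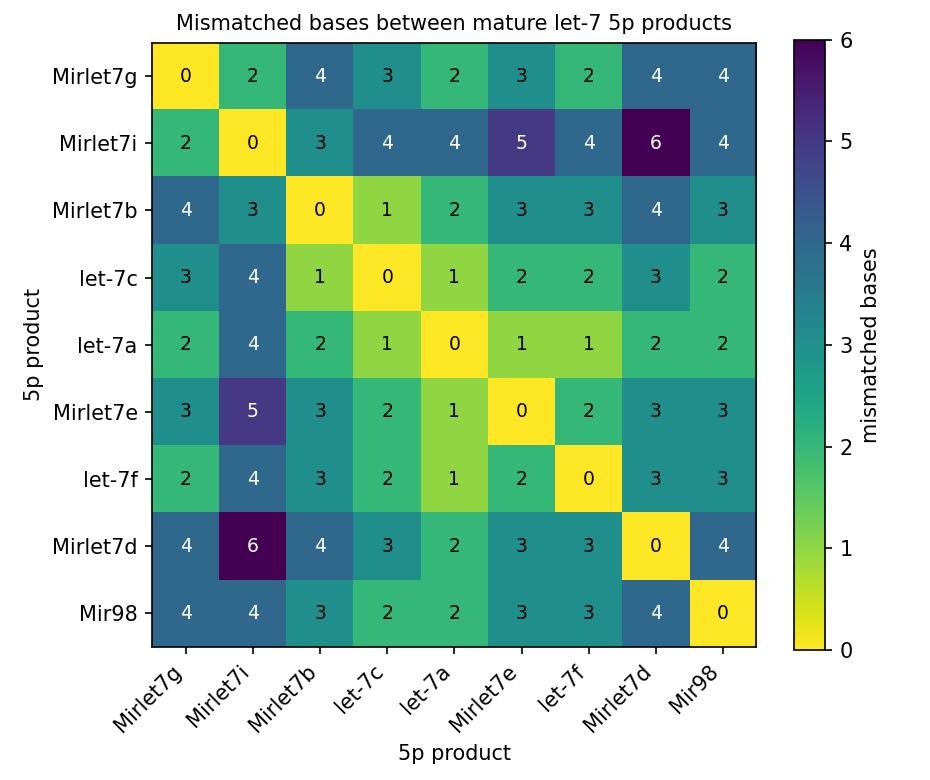
Number of mismatched bases between the 22 nt 5p products of the 6 genes and of let-7a, let-7c and let-7f; both axes list the products and the colour and the printed number give the mismatches. Pairs among the 6 genes differ at 2 to 6 bases, while Mirlet7b differs from let-7c, and Mirlet7e from let-7a, at 1 base.

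Assignment to a gene rested on few bases. The product of Mirlet7b differed from let-7c by G17A alone and that of Mirlet7e from let-7a by G9U alone, with the base of the named gene first and positions counted from the 5′ end. Products were compared among the 6 genes and let-7a, let-7c and let-7f only. The comparison left out let-7k and let-7j, whose first 22 bases differ from let-7i only at the last base of the seed. Within it, Mirlet7i was nearest to Mirlet7g (G17A and U19A), while Mirlet7g lay 2 mismatches from Mirlet7i, let-7a and let-7f alike. Mirlet7d was nearest to let-7a (A1U and C16U), and Mir98 lay 2 mismatches from let-7a and from let-7c. A read that starts at base 1 of the 5p product matched no other annotated hairpin once it held 17 bases for Mirlet7b, Mirlet7e, Mirlet7g and Mirlet7i, 11 for Mir98 and 9 for Mirlet7d. Reads were counted per gene, so shorter or altered reads could not be examined, and other genomic sequence was not searched. For let-7a, let-7c and let-7f the whole 22 nt product occurred in 2 hairpins each, and no length made it unique. The longest stretch that a hairpin shared with any other was 14 to 19 nt for the 6 genes, against 22 to 26 nt for the 6 multi-locus genes.

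The 3p products were less alike. Mirlet7b and Mir98 shared the 3p seed UAUACAA, also found in 3p products of Mirlet7a-1, Mirlet7c-2 and Mirlet7f-1. The 3p seeds of Mirlet7d (UAUACGA), Mirlet7e (UAUACGG), Mirlet7g (CUGUACA) and Mirlet7i (UGCGCAA) were found in no other entry. Since a count adds both arms of a hairpin, the values below do not separate 5p from 3p products.

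The libraries held 6441333 and 10003856 reads in replicates 1 and 2, of which 2322520 and 3414105 were counted on miRNA genes. Reads that mapped to several places, 42.6% and 46.0% of the libraries, were in no gene's count. Counts of a neuron-enriched list summed to 34465 and 50227 CPM (counts scaled to 1000000 miRNA-gene counts per library). Of its 17 genes, 15 reached the detection limit, which was 2 CPM in each library. Mir124a-2 and Mir124a-3 did not, and Mir124a-1 stood at 2.58 and 3.22 CPM. The list holds several loci each of miR-124 and miR-9, and how many multimapping reads were theirs was not tested. Lists for other cells were also present, at 14889 and 12474 CPM for endothelium, 6456 and 6935 CPM for mural cells, 4367 and 2683 CPM for oligodendrocytes, 1922 and 1149 CPM for erythrocytes, 1260 and 1590 CPM for microglia and leukocytes, and 590.3 and 738 CPM for choroid plexus. The liver marker stood at 52.1 and 40.7 CPM and the striated muscle list at 55.1 and 24.0 CPM, with 4 of its 5 genes at 0. In bulk tissue, fewer cells of a type and less RNA per cell cannot be told apart.

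The 6 genes held 39.5% ± 4.40 (SD, n = 2) of all miRNA-gene counts, at 42.6% in replicate 1 (Wilson 95% interval 42.5 to 42.6) and 36.3% in replicate 2 (36.3 to 36.4). Replicate 1 was the higher library by more than counting error. As a share of all reads in the library they made up 15.3% and 12.4%. They carried 98.3% and 98.2% of the placed counts of the 12 let-7 genes. The 6 multi-locus genes held 0.698% ± 0.0276 (SD, n = 2) of miRNA-gene counts, so the single-locus genes exceeded them 59.3-fold and 53.6-fold. Multimapping reads numbered 2.77 and 3.71 for each read placed on the 6 genes, and how many of them were let-7 reads was not tested. The shares and folds, and the ranks below, therefore describe placed reads, not amounts of let-7a, let-7c and let-7f or of other multi-locus miRNAs.

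**Figure D2:**
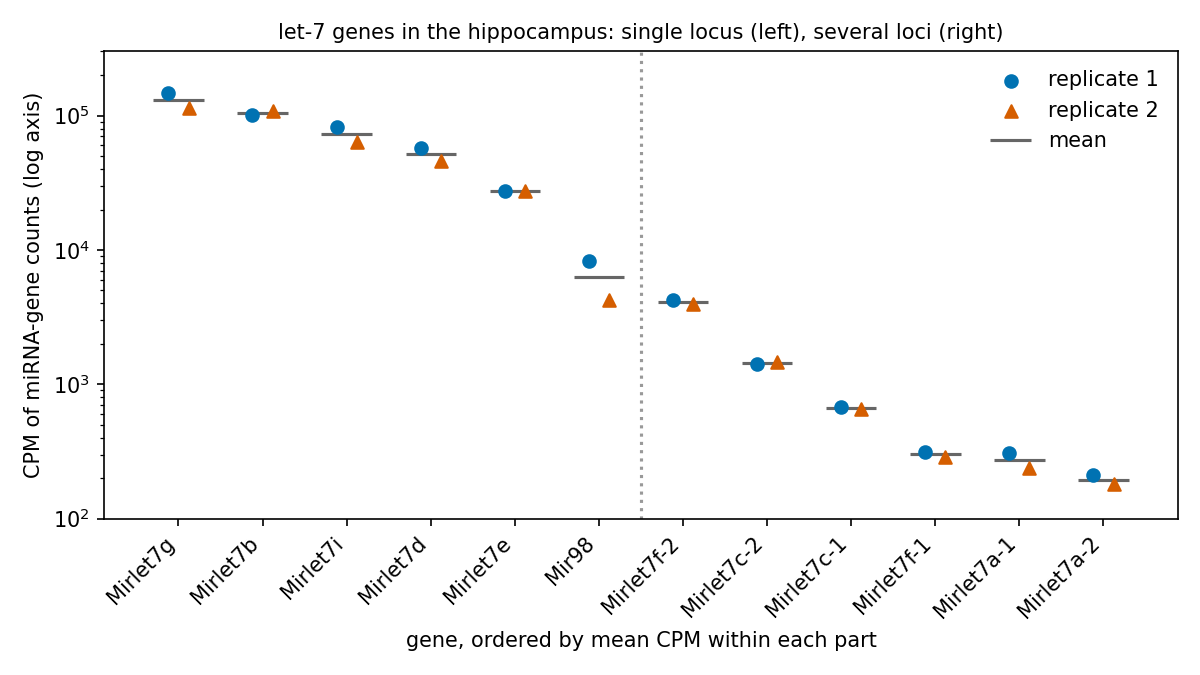
CPM on a log axis of the 12 let-7 genes in replicate 1 (blue circles) and replicate 2 (orange triangles), with the mean as a line; single-locus let-7 genes are left of the dotted line and multi-locus genes right of it. The former span means of 130646 (Mirlet7g) to 6244 CPM (Mir98) and the latter 4112 (Mirlet7f-2) to 196 CPM (Mirlet7a-2).

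By placed reads, Mirlet7g stood first among all miRNA genes in both libraries. It had 343179 counts (147761 CPM) in replicate 1 and 387605 counts (113530.5 CPM) in replicate 2, a mean of 130646 ± 24205 CPM (SD, n = 2). Its share was 14.8% of miRNA-gene counts in replicate 1 and 11.4% in replicate 2. The gene (ENSMUSG00000065440.1) lies on chromosome 9 at 106178840 to 106178927 of mm10, in an intron of Wdr82, which encodes a subunit of histone methyltransferase complexes. No other miRNA gene was annotated within 10 kb.

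Mirlet7b was second in both libraries, and it was the member whose CPM was higher in replicate 2. It had 235765 counts (101513 CPM) and 368368 counts (107896 CPM), a mean of 104704 ± 4514 CPM. Mirlet7b (ENSMUSG00000065564.1) is on chromosome 15 at 85707319 to 85707403, overlapping an exon of the noncoding gene Lncppara. Mirlet7c-2 lies 621 nt upstream on the same strand. This neighbour is a multi-locus gene, and its mature 5p product differs from that of Mirlet7b at 1 base. It had 1408 and 1469 CPM, so in placed reads Mirlet7b exceeded it 72.1-fold and 73.4-fold.

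Mirlet7i, also without an annotated miRNA neighbour within 10 kb, had 192367 counts (82827 CPM) and 218672 counts (64049.6 CPM). Its mean was 73438 ± 13278 CPM, and its rank was 3 in replicate 1 and 4 in replicate 2. Mirlet7i (ENSMUSG00000065406.3) is on the minus strand of chromosome 10 at 122985640 to 122985724, overlapping an exon of the transcribed pseudogene D630033A02Rik.

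Mirlet7d had 133997 counts (57695 CPM) and 157560 counts (46149.7 CPM), a mean of 51922 ± 8164 CPM, with rank 5 in both libraries. It lies on the minus strand of chromosome 13 at 48536012 to 48536114 (ENSMUSG00000065453.1), overlapping an exon of the lincRNA 6720427I07Rik. Mirlet7f-1 and Mirlet7a-1, on the same strand 1714 and 2064 nt away, are multi-locus genes. Mirlet7f-1 had 313 and 288 CPM and Mirlet7a-1 had 308 and 237 CPM. Mirlet7d exceeded Mirlet7f-1 184-fold and 160-fold, and Mirlet7a-1 187-fold and 195-fold.

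Mirlet7e had nearly the same CPM in both libraries, with 64214 counts (27648 CPM) and 94311 counts (27624 CPM), a mean of 27636 ± 17.3 CPM. Its rank was 9 in both. The gene (ENSMUSG00000105758.1) is on chromosome 17 at 17830352 to 17830444, in an intron of Spaca6, a gene known for sperm-egg fusion. Gm25927, annotated as a miRNA gene on the opposite strand, covers it whole and had 0 counts on its own strand. The unstranded column gives Mirlet7e 0 counts in both libraries, so its value rests on the same-strand column. The cluster partners Mir99b, 94 nt away, and Mir125a, 367 nt away, can be placed apart from let-7. Mir99b had 8784 and 9581 CPM, and Mir125a had 5854 and 10403 CPM. The level of Mirlet7e was 3.15-fold and 2.88-fold that of Mir99b, and 4.72-fold and 2.66-fold that of Mir125a. After TMM scaling, which corrects library sizes for composition, Mir125a was 1.75-fold and Mir99b 1.07-fold higher in replicate 2, and Mirlet7e 1.02-fold lower.

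Mir98, a let-7 gene by sequence in spite of its name, was the lowest of the 6. It had 19185 counts (8260.4 CPM) in replicate 1 and 14435 counts (4228 CPM) in replicate 2, a mean of 6244 ± 2851 CPM. The deeper library thus held fewer Mir98 counts, and the gene ranked 26 in replicate 1 and 39 in replicate 2. Mir98 (ENSMUSG00000065536.2) is on chromosome X at 151913214 to 151913321, in an intron of the ubiquitin ligase gene Huwe1, 785 nt from Mirlet7f-2 on the same strand. Mirlet7f-2 had 4265 and 3959 CPM, the highest level of the multi-locus let-7 genes. The level of Mir98 was 1.94-fold that of Mirlet7f-2 in replicate 1 and 1.07-fold in replicate 2.

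**Figure D3:**
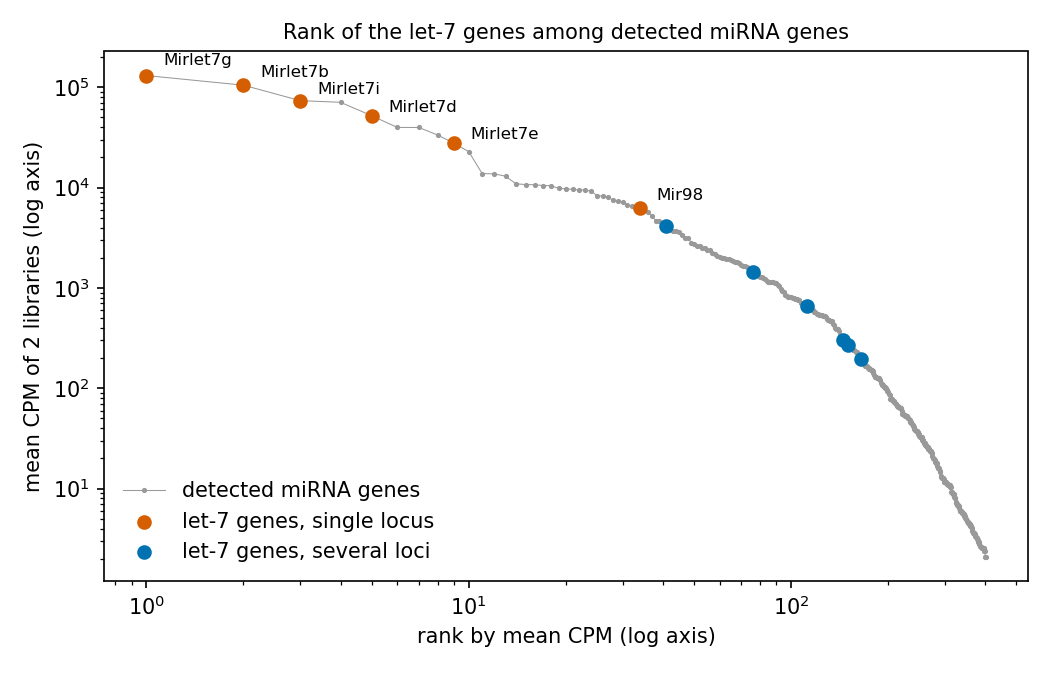
Mean CPM of each of the 401 detected miRNA genes against its rank, both on log axes, with the 6 single-locus let-7 genes in orange and the 6 multi-locus let-7 genes in blue. Of the 5 genes at 50000 CPM or more, 4 are single-locus let-7 genes, and Mir98 is at rank 34.

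By mean CPM the order was Mirlet7g, Mirlet7b, Mirlet7i, Mirlet7d, Mirlet7e and Mir98, and both libraries gave the same order. Neighbours in it were called apart where the log2 ratio had 1 sign in both libraries and a mean over 2 SD. With 2 libraries the smallest two-sided sign-flip p is 0.5, so no p is given. Of the 5 neighbouring pairs 3 were apart. Mirlet7i exceeded Mirlet7d 1.44-fold and 1.39-fold, Mirlet7d exceeded Mirlet7e 2.09-fold and 1.67-fold, and Mirlet7e exceeded Mir98 3.35-fold and 6.53-fold. Mirlet7g and Mirlet7b did not differ beyond the replicate spread, at 1.46-fold and 1.05-fold. The same held for Mirlet7b over Mirlet7i, at 1.23-fold and 1.68-fold. Over all 15 pairs 13 were apart.

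The genes of other families nearest in level were found by the distance of log2(CPM + 1) over the 2 libraries, as a description. Mir139, at 59771 and 81726 CPM, was nearest to Mirlet7b (distance 0.863), Mirlet7g (1.39) and Mirlet7i (0.587). Its CPM, like that of Mirlet7b, was higher in replicate 2, whereas those of Mirlet7g and Mirlet7i were lower. Mir127, at 40661 and 38792 CPM, was nearest to Mirlet7d, and Mir23b, at 20938 and 24647 CPM, to Mirlet7e. Mir221 was nearest to Mir98 and, like it, lower in replicate 2, at 8897 and 5426 CPM.

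Between the libraries, each of the 6 genes differed by the exact binomial test, 5 of them lower and 1 higher in replicate 2 after TMM scaling. The background was high, since 204 of 401 detected genes (50.9%) passed this test, 22.7% as lower and 28.2% as higher in replicate 2. At counts of 14435 to 387605 very small differences pass, so the sizes are more informative than the calls. The median fold of all detected genes in either direction was 1.26, and 4 of the 6 genes lay above it. Their median log2 ratio, replicate 2 over replicate 1, was -0.37, beside 0.03 over all detected genes.

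Mir98 differed most, at 1.99-fold lower in replicate 2 (95% interval of counting error 1.95 to 2.03), and 43 of the 401 detected genes differed more. Mirlet7g was 1.32-fold lower (1.32 to 1.33), Mirlet7i 1.32-fold (1.31 to 1.32) and Mirlet7d 1.27-fold (1.26 to 1.28). The adjusted exact binomial p of these 4 genes was too small to be written as a number by the test, and they were lower in replicate 2 under each of the 4 scalings tried. Mirlet7b was 1.04-fold higher (1.04 to 1.05) after TMM scaling (adjusted exact binomial p = 2.56e-60), but lower, with a log2 ratio of -0.063, when scaled to the total without let-7 genes. Mirlet7e was 1.02-fold lower (1.01 to 1.03; adjusted exact binomial p = 0.000811), and did not pass when scaled to the total of miRNA-gene counts. Over the same libraries the summed CPM of the neuron-enriched, mural, microglia and leukocyte, and choroid plexus lists was higher in replicate 2. Sums of the oligodendrocyte, endothelial and erythrocyte lists were lower, with the values given above. CPM has a fixed total, of which the 12 let-7 genes held 43.3% and 37.0%, so these directions are not independent of the let-7 values. The sums were not recomputed without let-7 genes. Members of a list did not all go the same way. In the neuron-enriched list 7 genes were called higher and 3 lower in replicate 2, and 5 tested genes were not called. The rise of its sum lay mostly in Mir128-1 (4518 and 16906 CPM), while the 3 called lower were Mir132, Mir138-1 and Mir138-2. The erythrocyte sum followed Mir451a (1807 and 1007 CPM, called lower), while Mir144 (94.7 and 121 CPM) was called higher and Mir486 (20.7 and 21.4 CPM) was not called. In the microglia and leukocyte list Mir150 (569 and 966 CPM) and Mir142 (63.3 and 93.1 CPM) were called higher, Mir146 (585 and 497 CPM) lower, and Mir155 (43.1 and 33.4 CPM) was not called. Of the oligodendrocyte list, 2 genes were called lower and 1 was not called. The part of these cells in the let-7 values was not tested.

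**Figure D4:**
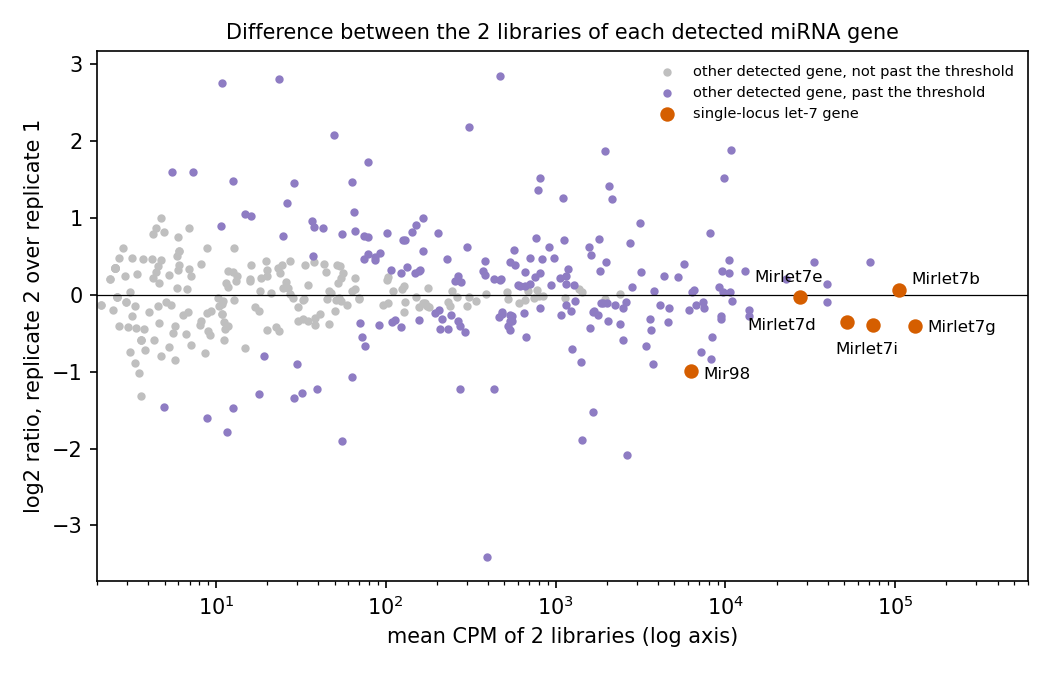
Log2 ratio of replicate 2 over replicate 1 (TMM scaling) against mean CPM on a log axis for the 401 detected genes; the 6 single-locus let-7 genes are orange, other genes are purple where they pass the exact binomial threshold and grey where they do not. Mirlet7b and Mirlet7e lie near 0, Mirlet7d, Mirlet7g and Mirlet7i between -0.35 and -0.41, and Mir98 at -0.99.

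Ratios between 2 of the genes do not depend on library scaling. Mirlet7g, Mirlet7i and Mirlet7d stood in nearly the same proportions in both libraries. The level of Mirlet7g was 1.78-fold that of Mirlet7i in replicate 1 and 1.77-fold in replicate 2, a quotient of 0.994 (replicate 2 over replicate 1) with a counting interval of 0.986 to 1.001. It was 2.56-fold and 2.46-fold that of Mirlet7d. The ratio of Mirlet7b to Mirlet7e was also similar, at 3.67-fold and 3.91-fold.

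Pairs drawn across these 2 sets differed more between the libraries. The quotient was 0.723 (0.718 to 0.728) for Mirlet7g over Mirlet7b, 0.774 (0.765 to 0.783) for Mirlet7i over Mirlet7e and 0.801 (0.791 to 0.811) for Mirlet7d over Mirlet7e. Ratios to Mir98 differed most, at 12.3-fold and 25.5-fold for Mirlet7b and 17.9-fold and 26.9-fold for Mirlet7g. Of the 15 pairs, 4 differed by less than 1.1-fold and 5, each with Mir98, by more than 1.5-fold. The interval of 1 pair, Mirlet7g and Mirlet7i, held a quotient of 1. These are differences between 2 libraries, and the sets were read from the values, so no test is attached to them.

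**Figure D5:**
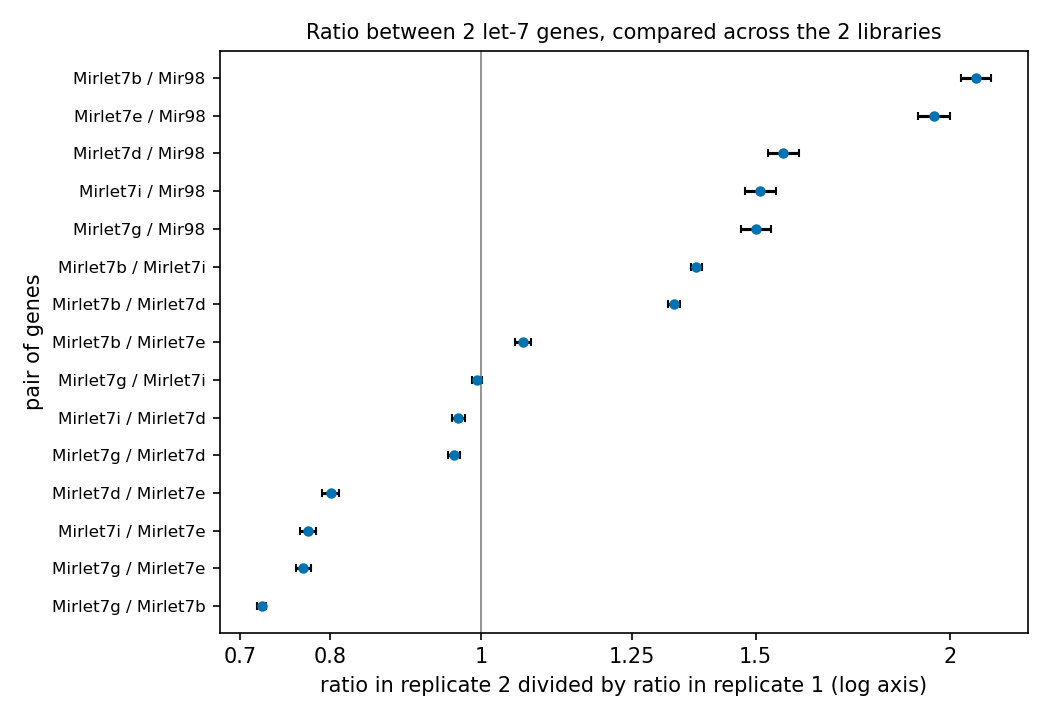
For each of the 15 pairs, the ratio of the first gene to the second in replicate 2 divided by that in replicate 1, on a log axis, with bars for the 95% interval of counting error; the grey line marks an equal ratio in both. The pairs run from 0.723 (Mirlet7g over Mirlet7b) to 2.08 (Mirlet7b over Mir98), and Mirlet7g over Mirlet7i sits on the line at 0.994.

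In terms of the sum of the 6 genes, Mirlet7g made up 34.7% in replicate 1 and 31.2% in replicate 2, and Mirlet7b 23.8% and 29.7%. Mirlet7i made up 19.5% and 17.6%, Mirlet7d 13.6% and 12.7%, Mirlet7e 6.49% and 7.60%, and Mir98 1.94% and 1.16%. Mirlet7g and Mirlet7b led in both libraries, with shares closer to each other in replicate 2. These shares add both arms of each hairpin.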

How the data were processed

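Small RNA libraries of 1 group were used, 2 in number, which the labels call biological replicates but give 1 donor entry. The deposited values are whole-number counts of reads per miRNA gene, made by the authors without normalization. Per the labels the assembly is mm10, and per the deposited file descriptions the annotation is GENCODE M21. Aligner, counter and settings: not given in the sources used here. Of the 3 count columns per table, the one for the strand of the gene was used; what each column holds was read from the values. The 4 rows that name no gene were left out of totals and hold 63.9% of replicate 1 and 65.9% of replicate 2. All 2202 gene identifiers matched M21.

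Counts were scaled to 1000000 per library over miRNA genes (CPM). Detection required 2 CPM or more in both libraries. The libraries were compared gene by gene over all detected genes with a two-sided exact binomial test, given TMM effective library sizes (edgeR 4.0.16, R 4.3.3), with Benjamini-Hochberg adjustment at 0.05. Log2 ratios used 0.5 added to each count. This test compares 2 libraries, not conditions. The quasi-likelihood test of edgeR was not used, since 1 library against 1 leaves no residual degrees of freedom. The test was tested on simulated data, drawn as Poisson counts at plain library totals with no added spread between libraries. That setting does not show how the test behaves where the spread exceeds counting error. Alternatives were other scalings (DESeq2 1.42.0 size factors among them), no filter on low counts, the unstranded column and leaving out each library. Intervals cover counting error only and leave out other spread between libraries. Reads without molecular identifiers are not independent molecules, so the intervals may be too narrow even for counting error. Sequences came from RefSeq (GRCm38.p6), and all 6 genes matched by symbol. Longest shared stretches and unique prefixes were searched in the 2202 hairpins of M21, on the strand of each gene. The genes named are the 6 members, the other let-7 genes and genes with the same seed. Also named are miRNA genes within 10 kb on the same strand, any overlapping on either strand, and the gene of another family nearest in level. Members and lists were chosen with earlier results of these data known.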

Additional observations from a re-analysis of the deposited data

Results flagged for a closer look

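On the strand opposite to Mirlet7b, 4 counts were found in replicate 2, more than the upper limit of 3 set for a count of 0, and 1 count in replicate 1, beside 368368 and 235765 counts on its own strand. The opposite strand of the other 5 genes had 0 counts in both libraries.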

How the results depend on the processing

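The summed share of the 6 genes, 39.5% of miRNA-gene counts, was 13.9% with all reads of the library as denominator. It was 49.7% when the 5 most abundant other genes were left out of the denominator, and 36.3% to 42.6% with either replicate left out. With both strands together it was 39.6%, but Mirlet7e had 0 counts there and the totals were 2152080 and 3160876 counts. That value thus sums 5 genes over smaller totals and does not show that the share is stable. With the same sign in both libraries as the only rule, 5 of 5 neighbouring pairs were apart in place of 3, and with both strands together, where Mirlet7e drops out, 2 of 4 were. The log2 ratio of Mirlet7b turned from 0.063 to -0.063 when scaled to the total without let-7 genes. Why the share of let-7 genes differed between the libraries was not tested. Scaling without let-7 genes shifts the log2 ratio of every gene by the same amount. That scaling moved the median log2 ratio of detected genes from 0.03 to -0.09 and split the calls into 82 higher and 121 lower in replicate 2, against 113 and 91. Between 5 and 6 of the 6 genes and 184 to 210 genes in all were called under the alternatives. With no filter, 715 genes were tested. With both strands together Mirlet7e has 0 counts and could not be compared. Within-library ratios need no scaling, so none was tried for the order. No test between conditions or paired analysis was possible because there was 1 group. Of 59 alternative values for single genes, 55 kept their direction and call or moved by less than the replicate spread. With 2 libraries, leaving 1 out always moves a mean CPM by less than the SD. Those values among the 55 could not have failed and say nothing about stability. The upper limit of 3 set for a count of 0 equals 1.29 and 0.879 CPM, below the level of each of the 6 genes. The number of libraries limits the precision.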

Other observations

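The products named let-7j and let-7k come from Mir7j and Mir7k, outside the 12 genes above. Mir7j, whose seed GAGGUAU differs from the let-7 seed at its last base, had 83 counts (35.7 CPM) in replicate 1 and 100 counts (29.3 CPM) in replicate 2. Mir7k, which carries the let-7 seed and shares 17 nt with the hairpin of Mirlet7e, had 3 and 0 counts, not above the upper limit of 3 set for a count of 0. Mir1961, the other gene with this seed, had 0 counts in both libraries.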
